A study of Mus musculus with 3 samples.

Results

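The comparison described here sets mouse blastocysts 6 h after estradiol (reactivating) against dormant blastocysts. Its members are the genes with an exon length of at least 1000 bases and at least 50 exon reads in the higher of the 2 libraries, 9106 of the 31510 genes in the deposited tables. All animals were CD-1 females given in the labels as 2 months old, with no transgene or deletion named. They were ovariectomized on day 4 of pregnancy and injected with progesterone (2 mg per mouse) daily on days 5 to 7. Dormant blastocysts were flushed from such uteri on the morning of day 8 with no estradiol, whereas the reactivating ones came from mothers killed 6 h after an estradiol (E2) injection on day 7. A further library, taken 12 h after E2 (reactivated), is given beside them. One library stands for each state, and more than 3000 blastocysts were pooled for it, so embryos of many mothers are mixed and no spread between replicates exists. Day of collection differs with the state, so its part cannot be told apart from that of E2. All differences below therefore describe 2 libraries, without an SD, a test or a p-value.

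Delayed implantation is a natural pause of mammalian development. Without ovarian estrogen a mouse blastocyst hatches and then stays in the uterus with low metabolism and few cell divisions, and a single rise of estrogen in a progesterone-primed mother lets it attach. Total RNA freed of ribosomal RNA holds both spliced messenger RNA and unspliced precursors. Reads within introns come mostly from precursors and excised introns, reads across exon junctions come only from spliced RNA, and other exon reads come from either. Long precursors persist for minutes to hours, so intron reads are often used as a readout of recent transcription, and junction reads as a readout of mature RNA.

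The library totals behind the deposited RPKM (exon reads scaled by exon length and library total) were 14118723 in dormant and 15687239 in reactivating blastocysts. Members held 7304710 and 8461362 exon reads. Of the exon and intron reads of members, introns took 27.0% in dormant, 24.0% at 6 h and 22% at 12 h. Junction reads made up 12.0%, 12.2% and 11.3% of the members' exon reads. All 3 libraries carried the markers of the blastocyst lineages. The summed level of the 25 trophectoderm markers was 2698 RPKM in dormant and 2905 at 6 h, that of the 28 naive epiblast markers 892 and 867, and that of the 21 primitive endoderm markers 814 and 838. Markers of maternal cells were lower, with 289 and 268 RPKM for 18 uterine epithelium genes, 10.1 and 8.18 for 13 uterine stroma genes, 34.3 and 27.6 for 16 immune cell genes, and 0.76 and 0.61 for the red blood cell genes, of which Hba-a1 and Hba-a2 were listed at 0 in both. Elf3 (174 and 159 RPKM), Lif and Cldn3 made up most of the epithelial sum. The part of maternal cells in the values below was not tested.

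Exon reads changed little in 6 h. A difference is given as log2 of reads at 6 h over reads in dormant blastocysts, after adding 1 read to each and dividing by the library total, and a gene is said to rise or fall at 2-fold or more, that is, below -1 or above 1. By this rule 105 members rose (1.15%) and 54 fell (0.593%), and the median difference was 0.07, with 5% of members below -0.49 and 5% above 0.63. Fewer cells of a type and less RNA per cell cannot be told apart in pooled embryos. The same rule applied to the 12 h library gave 504 genes higher and 1013 lower than dormant among 9259 genes, a comparison that shares the dormant library. The split between rises and falls depended on the scaling. Rises made up 66.0% of the changed members with library totals, 56.7% with upper-quartile scaling (85 rose, 65 fell), 52.7% with median-ratio factors (78 and 70), 52.3% with TMM factors (78 and 71), and 74.3% on the scale of log2(RPKM + 1).

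Most of the changed members were weakly covered. Of the 105 that rose, 86 had fewer than 200 exon reads in the higher library, 69 were under 5 RPKM in both, and 10 were pseudogenes. Of the 54 that fell, 49 had fewer than 200 reads. With 200 reads in the higher library, 19 members rose and 5 fell among 6208. Members just inside the limits resembled those just outside. Within 100 bases above the length limit 6 of 192 genes rose and 4 fell, and within 100 bases below it 6 of 165 rose and 2 fell. Just above the limit of 50 reads 16 of 289 genes rose and 13 fell, and just below it 27 of 358 and 25. Genes shorter than 1000 bases, which are no members, changed more often, with 98 of 1299 rising (7.54%) and 125 falling (9.62%). Over genes of any length with 50 reads, 203 rose (1.95%) and 179 fell (1.72%), 3.67% together.

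**Figure D1:**
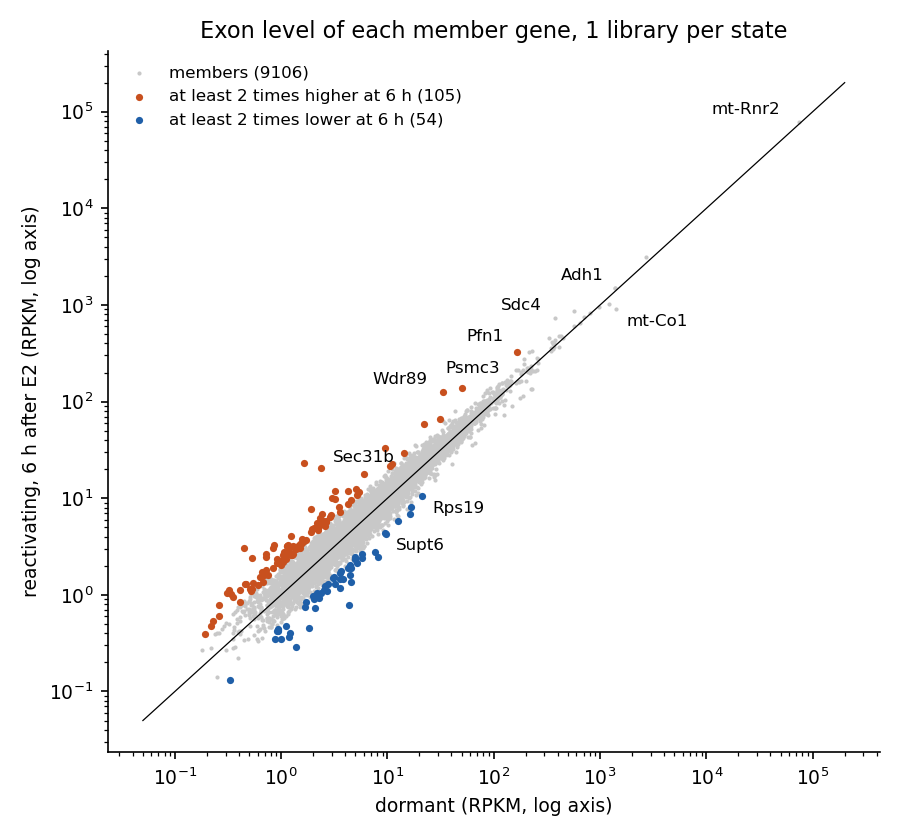
RPKM of each member gene in dormant (x axis, log scale) and reactivating blastocysts (y axis, log scale), 1 library each, with the line of equal levels. The 105 members that rose and the 54 that fell lie mostly below 10 RPKM, while highly expressed genes such as Adh1 lie near the line.

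Among genes above 5 RPKM the rises came from varied functions. Wdr89, which encodes a WD-repeat protein (ENSMUSG00000045690, GRCm38 chromosome 12, 75630596 to 75669537), had 1394 exon reads in dormant, 5811 at 6 h and 3217 at 12 h, that is 33.5, 126 and 57.5 RPKM. Its difference was 1.91 (95% exact binomial interval 1.82 to 1.99, which covers counting error only). Almost all of its reads lay outside junctions, and its 77 and 89 intron reads gave a difference of 0.05.

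Psmc3 encodes an ATPase subunit of the cap that feeds proteins into the proteasome (ENSMUSG00000002102, chromosome 2, 91054009 to 91066369). Its exon reads went from 1205 to 3716, and to 5093 at 12 h, or from 49.8 to 138 and 156 RPKM, a difference of 1.47 (1.38 to 1.57) at 6 h. The rise lay outside the junctions, where reads went from 867 to 3274, whereas the junction reads were 338 and 442 (difference 0.23, interval 0.03 to 0.44) and the intron reads 199 and 206. The other 20 proteasome genes among the members neither rose nor fell, and 15 of the 21 were above 0, with a median of 0.13.

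Pigp, part of the enzyme that starts the GPI anchor of surface proteins, had 5.97, 17.9 and 19.8 RPKM in dormant, 6 h and 12 h blastocysts. Taf4b, a variant subunit of the transcription factor TFIID, had 4.29, 11.8 and 15.9 RPKM. In Taf4b the intron reads went the other way, from 158 to 88 (difference -0.99). Tfb1m, which methylates the small ribosomal RNA of mitochondria, showed the same opposition, with 43 and 130 exon reads and 93 and 59 intron reads. Nt5m, a nucleotidase of mitochondria, had 57, 232 and 181 exon reads, and Cfap298, a gene needed for cilia, 79, 217 and 318.

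Some rises were smaller at 12 h than at 6 h. Thap3, a gene of the THAP family of DNA-binding proteins, had 51 exon reads in dormant, 175 at 6 h and again 51 at 12 h. Zfand2b, a zinc finger gene, had 52, 196 and 140, and R3hcc1 had 67, 180 and 127. Other rises with more than 200 reads were chosen for mention after their values were seen. Pfn1, the actin-binding protein profilin, had 164, 330 and 382 RPKM, and Sae1, a subunit of the enzyme that activates the protein tag SUMO, had 31.5, 65.4 and 61.1.

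Near-identical gene copies leave some of the values uncertain. The pseudogene Wsb2-ps, also chosen after its values were seen, had 28 exon reads in dormant, 446 at 6 h and 227 at 12 h, the largest rise of any member (3.79). Its parent gene Wsb2 rose in its junction reads, with 45 and 200 junction reads against 152 and 193 other exon reads. The predicted pseudogenes Gm5389 (158 and 606 reads) and Gm13509 (408 and 1199 reads) also rose. Reads of a copy and its parent may be split between them by the counting, whose settings no source used here states.

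Among falls above 5 RPKM was an elongation factor of RNA polymerase II, and the largest subunit of the polymerase was just short of the 2-fold limit. Supt6, a histone chaperone that travels with elongating polymerase (ENSMUSG00000002052, chromosome 11, 78206746 to 78245987), had 801 exon reads in dormant, 397 at 6 h and 605 at 12 h, a difference of -1.16 (-1.34 to -0.99). Its junction reads fell from 164 to 81, and its 308 and 290 intron reads gave -0.24. Supt6 also had 4351 and 5376 reads on the opposite strand, more than on its own, whose part in its value was not tested. Polr2a, that largest subunit, had 12.5, 6.53 and 4.77 RPKM, with a difference of -0.93 (-1.08 to -0.79) in exon reads and of -1.23 in junction reads (145 and 68). Its 182 and 199 intron reads gave -0.02.

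Other low values were spread over unrelated functions. Tmem82, a membrane protein gene, fell from 156 to 64 exon reads and was at 64 again at 12 h. Eef1akmt2, which methylates a translation elongation factor, fell from 78 to 36 and was at 146 at 12 h, above dormant. Plpp5, a lipid phosphatase, fell from 124 to 62 and had 128 at 12 h. Crlf2, a cytokine receptor subunit, fell from 180 to 93 and had 89 at 12 h, and Rps19, a ribosomal protein with many pseudogenes, had 435, 239 and 180. Zmiz1, a transcriptional coactivator, was at -0.98 (696 and 392 reads), Lamtor1, which anchors the mTOR regulator Ragulator to lysosomes, at -0.97 (230 and 130 reads), and Slc35d2, a nucleotide sugar transporter, at -0.96 (123 and 70 reads), just short of the limit.

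Exon, junction and intron reads of a gene rarely passed 2-fold together, and few members passed it in any one kind. Of 4461 members with at least 50 junction reads in the higher library, 227 rose (5.09%) and 106 fell (2.38%) in junction reads, 7.46% together. Of the 6945 members with at least 50 intron reads, 110 rose (1.58%) and 88 fell (1.27%). Across 4193 members measured in junctions, introns and exons outside junctions, none rose in all 3 and none fell in all 3. Within exons outside junctions, 115 of 8891 members rose (1.29%) and 52 fell (0.585%), 1.88% together. The gene that fell both in junctions and in the rest of its exons was Supt6.

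Across genes the 3 kinds of reads were weakly alike. Pearson's r over members was 0.10 between exon and intron differences (n = 6945 genes), 0.10 between junction and intron differences (n = 4199) and 0.52 between exon and junction differences (n = 4461). Junction reads are part of exon reads, and once they were taken off the last value was 0.15 (n = 4451). With 200 reads of both kinds it was 0.65 with and 0.27 without the junction reads in the exon count. All points share the same pair of libraries and genes are not replicates, so these are descriptions.

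Of the 105 members that rose in exons, 43 had enough intron reads, and their median intron difference was 0.05. Sec31b, Mov10l1 and Gng7 rose in both, that is 3 of the 43, beside 1.58% of all members measured in introns. Hnrnph3, an RNA-binding protein gene, rose in exons (16 and 50 reads) and fell in introns (74 and 35). Gng7 had 16 and 60 exon reads and 21 and 56 intron reads, and Mov10l1, a helicase gene of the germline, had 59 and 153 exon reads and 26 and 67 intron reads. Of the 54 that fell, 20 had enough intron reads, with a median of -0.04. D130040H23Rik, 1 of the 20, fell in both (64 and 29 exon reads, 67 and 28 intron reads), beside 1.27% of all members measured in introns. Lipe, the hormone-sensitive lipase, fell in exons (100 and 54) and rose in introns (15 and 52). These genes were named after their values were seen.

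Sec31b showed how much one kind of read could carry. The gene encodes a part of the COPII coat, which buds vesicles from the endoplasmic reticulum (ENSMUSG00000051984, chromosome 19, 44516957 to 44545864). It had 122 exon reads in dormant, 1179 at 6 h and 451 at 12 h, the largest exon difference of any gene that is no pseudogene or predicted gene (3.11, interval 2.85 to 3.40). Its junction reads went from 83 to 1146, and made up 68.0% of its exon reads in dormant and 97.2% at 6 h. The remaining exon reads were 39 and 33. The 28 and 85 intron reads gave 1.42 (0.82 to 2.12).

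Other junction rises had the same shape and were chosen for mention after their values were seen. Gadd45g, a stress-response gene, had 4 junction reads in dormant, 80 at 6 h and 70 at 12 h, against 110, 113 and 97 other exon reads. Arpp19, an inhibitor of the phosphatase PP2A, had 22, 168 and 195 junction reads against 523, 518 and 971 others. Ykt6, a SNARE of vesicle fusion, had 36, 270 and 364 against 311, 453 and 490. Med21, a subunit of Mediator, had 11, 83 and 125 against 162, 150 and 373. The junction reads were up at 6 h in each of these genes, and the other exon reads at 6 h were within 2-fold of dormant. Why the junction reads moved without the others was not tested. No source used here states how junction reads were counted, so these values are not taken as rises of mature RNA.

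Few of the members that changed in junctions were weakly expressed, with 28 of the 227 rises and 16 of the 106 falls under 5 RPKM. The minimum of junction reads already favours well covered genes, so this coverage is not taken as a property of the rises. Sdc4, the cell-surface proteoglycan syndecan-4, had 1639, 5237 and 4168 junction reads and 4800, 8646 and 6179 others. Its level was 374 RPKM in dormant, 726 at 6 h and 447 at 12 h, with a difference of 0.96 (0.91 to 1.0). Of the 227 members that rose in junctions, 221 were measured in the rest of their exons, with a median difference of 0.09 there.

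**Figure D2:**
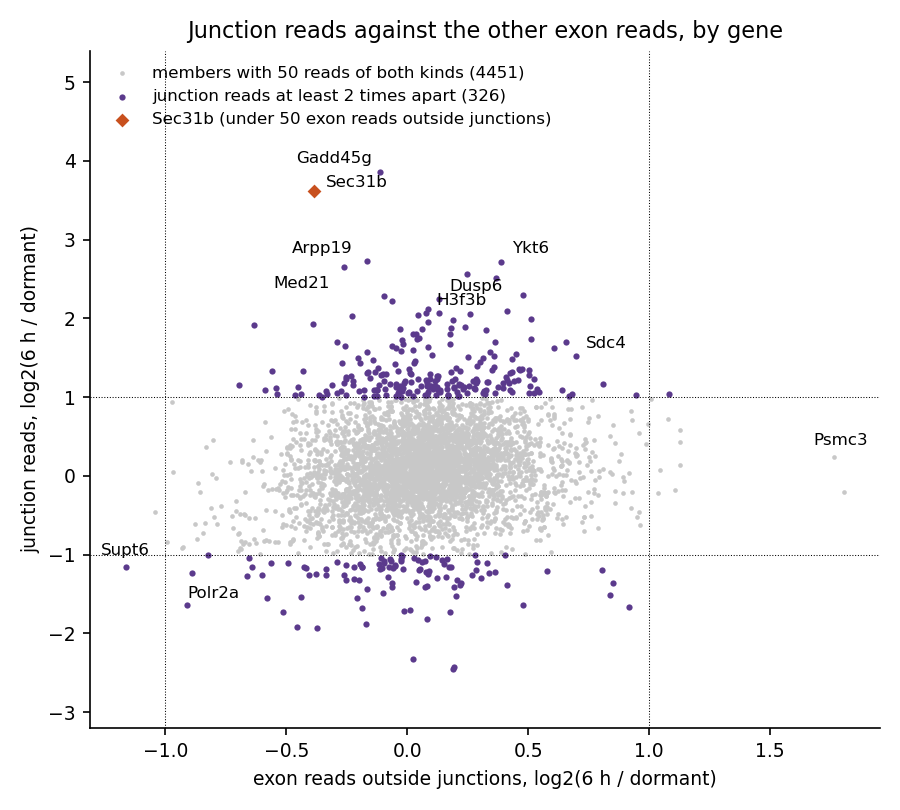
Difference in junction reads (y axis, log2 of 6 h over dormant) against that in the other exon reads (x axis, same scale) for members with at least 50 reads of both kinds, with dotted lines at 2-fold and Sec31b added. The points spread along the vertical axis, with Gadd45g near 3.87, and Psmc3 lies to the right at 1.76 with a junction difference of 0.23.

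Intron reads changed most in genes that hold small nucleolar RNAs. These small RNAs (snoRNAs, and scaRNAs in Cajal bodies) are cut out of the introns of host genes and guide chemical modification of ribosomal and spliceosomal RNA. Box C/D members guide methylation and H/ACA members guide conversion of uridine to pseudouridine. By the GENCODE M21 annotation 179 measured members, 2.60% of those in the annotation, held such a gene on their own strand. Of these hosts 6 rose and 23 fell in intron reads (16.2% together), against 102 and 65 of 6705 other members (2.49%). Hosts made up 26.1% of the members that fell. In exon reads 1 host of 179 changed, Slc25a43, a mitochondrial carrier gene (33 and 79 exon reads). That is 0.559% of hosts, beside 0.910% of the other members.

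Small RNAs inside 10 of the hosts that changed, all described below, are printed here from M21 (GRCm38), 5′ to 3′, so that their kind and length can be compared. Capitals mark the letters TGATG of box C within the first 15 bases together with CTGA of box D within the last 15, or an ACA within the last 8 bases. Both boxes were found so in 22% and the ACA in 47.6% of 1558 snoRNA and scaRNA transcripts of M21. No match in a window says only that these letters are not there.
Snora23, in Ipo7, chr7:110046364-110046547, plus strand: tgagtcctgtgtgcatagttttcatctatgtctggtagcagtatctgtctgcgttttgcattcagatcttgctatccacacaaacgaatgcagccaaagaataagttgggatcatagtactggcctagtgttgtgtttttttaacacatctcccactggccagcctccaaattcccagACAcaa
Gm25777, in Ranbp1, chr16:18240717-18240842, minus strand: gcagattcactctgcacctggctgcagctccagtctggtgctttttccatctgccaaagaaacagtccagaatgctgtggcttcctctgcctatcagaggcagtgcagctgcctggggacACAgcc
Snord67, in Ckap5, chr2:91596070-91596180, plus strand: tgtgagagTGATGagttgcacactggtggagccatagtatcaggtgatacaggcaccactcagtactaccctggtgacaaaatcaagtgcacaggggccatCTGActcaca
Snora28, in Eif5, chr12:111540941-111541067, plus strand: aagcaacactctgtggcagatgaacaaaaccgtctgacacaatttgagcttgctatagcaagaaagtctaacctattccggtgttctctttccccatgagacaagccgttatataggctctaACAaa
Snora64, in Rps2, chr17:24720772-24720905, plus strand: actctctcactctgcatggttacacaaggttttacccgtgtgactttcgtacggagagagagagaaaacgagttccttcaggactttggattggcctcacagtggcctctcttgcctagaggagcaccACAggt
Snord16a, in Rpl4, chr9:64175423-64175521, plus strand: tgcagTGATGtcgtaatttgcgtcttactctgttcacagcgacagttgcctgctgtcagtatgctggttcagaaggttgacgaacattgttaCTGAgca
Gm23262, in Eif4g2, chr7:111076060-111076227, minus strand: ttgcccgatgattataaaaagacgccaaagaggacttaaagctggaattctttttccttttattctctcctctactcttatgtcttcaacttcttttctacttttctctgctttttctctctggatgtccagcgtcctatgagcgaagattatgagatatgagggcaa
Gm24119, in Slc25a3, chr10:91118291-91118536, minus strand: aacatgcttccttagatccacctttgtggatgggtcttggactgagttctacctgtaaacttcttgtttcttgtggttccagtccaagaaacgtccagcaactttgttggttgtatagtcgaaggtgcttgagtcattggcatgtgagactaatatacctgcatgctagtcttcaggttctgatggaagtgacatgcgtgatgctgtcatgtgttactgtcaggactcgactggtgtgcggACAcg
Snord17, in Snx5, chr2:144265979-144266216, minus strand: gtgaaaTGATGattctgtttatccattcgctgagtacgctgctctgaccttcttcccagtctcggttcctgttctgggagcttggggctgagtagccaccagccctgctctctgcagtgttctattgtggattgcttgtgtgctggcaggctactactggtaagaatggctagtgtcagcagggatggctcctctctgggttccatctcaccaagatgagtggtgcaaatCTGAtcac
Scarna6, in Atg16l1, chr1:87784556-87784820, plus strand: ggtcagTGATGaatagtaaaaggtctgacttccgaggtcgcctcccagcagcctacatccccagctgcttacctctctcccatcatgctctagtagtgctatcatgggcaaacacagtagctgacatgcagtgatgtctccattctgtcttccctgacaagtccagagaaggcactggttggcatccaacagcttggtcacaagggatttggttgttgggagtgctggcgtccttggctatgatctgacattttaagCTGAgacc
The first 6 lie in hosts whose intron reads fell and the last 4 in hosts whose intron reads rose.

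Among hosts that fell, Ipo7 carried the most reads after Rpl4. Ipo7 encodes a nuclear import receptor (ENSMUSG00000066232, chromosome 7, 110018274 to 110056609). Its intron reads were 42884 in dormant, 5947 at 6 h and 8361 at 12 h, a difference of -3.0 (-3.04 to -2.96), while its exon reads were 2183 and 2314 (difference -0.07). The row of Snora23 itself held 40898 reads in dormant, 3569 at 6 h and 5819 at 12 h. Taking the rows of its small RNAs off left 1199 intron reads in dormant and 2160 at 6 h, a difference of 0.70.

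Ranbp1 and Ckap5 also fell in intron reads, along with their small RNA rows. Ranbp1, a regulator of the transport GTPase Ran (ENSMUSG00000005732, chromosome 16, 18239784 to 18248732), had 2729, 308 and 542 intron reads, while the row of Gm25777 held 2549, 154 and 257. Its exon reads were 533 and 661. Without Gm25777 the 180 and 154 remaining intron reads gave -0.38. Ckap5, which lengthens microtubules of the spindle (ENSMUSG00000040549, chromosome 2, 91526762 to 91620664), had 11002, 2190 and 2741 intron reads, while the row of Snord67 held 10717, 1833 and 2254. Without Snord67 the 285 and 357 remaining reads gave 0.17.

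Further hosts that fell were Eif5, Rps2 and Rpl4. Eif5, an initiation factor, had 5646, 1510 and 2178 intron reads with Snora28 at 5141, 1121 and 1706. Rps2, of the small ribosomal subunit, had 17026, 5779 and 5440, with Snora64 at 16963, 5715 and 5363. Rpl4, of the large subunit (ENSMUSG00000032399, chromosome 9, 64173375 to 64178666), had 70550, 14808 and 30716 intron reads and 8704, 9874 and 9035 exon reads. Rows exist for 3 of its 5 small RNAs and held 3048 and 4222 reads, so most of its intron reads lay elsewhere. Snord16a and Gm23136 have no rows in the tables.

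The intron reads of 6 hosts rose. Eif4g2, a translation factor related to eIF4G (ENSMUSG00000005610, chromosome 7, 111067750 to 111083030), had 5078 intron reads in dormant, 29521 at 6 h and 38032 at 12 h, a difference of 2.39 (2.34 to 2.43), and 8923 and 9583 exon reads. Atg16l1, an autophagy gene (chromosome 1, 87755870 to 87792428), had 6158, 23467 and 15035 intron reads and 573 and 619 exon reads. Their small RNAs, Gm23262, Scarna6 and Gm25395, have no rows. Slc25a3, the phosphate carrier of mitochondria, had 5365, 16970 and 22172, with Gm24119 at 3921, 15524 and 20308. Snx5, a sorting nexin of endosomes, had 18451, 44526 and 35298. Within Snx5 the 238-base Snord17 went from 4907 to 35472 reads while the 138-base Gm26165 went from 12471 to 7908. The other 2 hosts were Rps3 (8235 and 20471 intron reads) and Gm29394 (26 and 60). In Rps3 the intron reads outside its small RNA rows were 662 and 3149, a difference of 2.10, beside 1.04 for the rows.

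**Figure D3:**
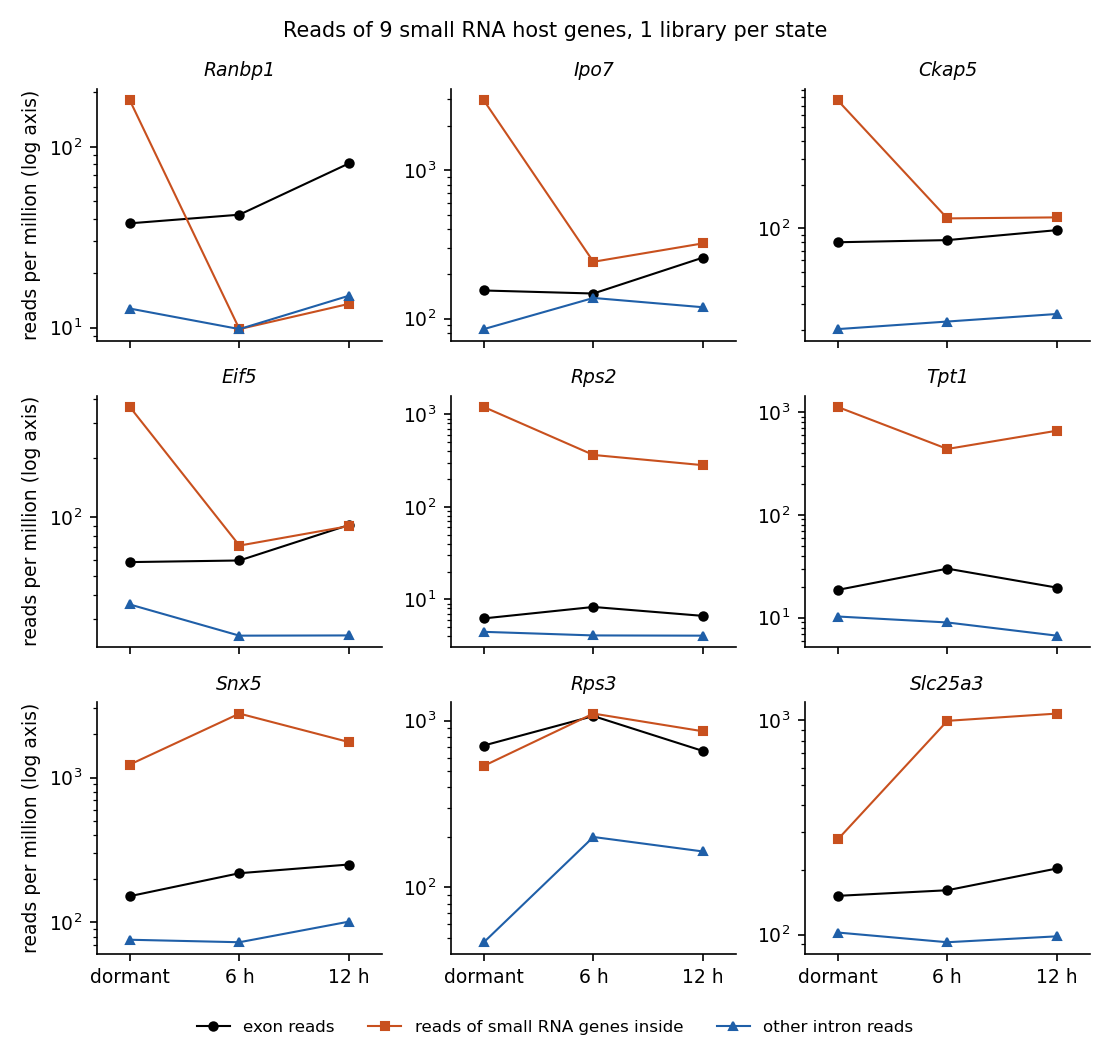
Reads scaled to the library total (log axis, not starting at 0) in dormant, 6 h and 12 h blastocysts for 9 hosts, split into exon reads, reads of the small RNA rows inside the gene, and the remaining intron reads. In Ranbp1, Ipo7, Ckap5, Eif5, Rps2 and Tpt1 the small RNA reads drop from dormant to 6 h, and in Snx5, Rps3 and Slc25a3 they rise. The remaining intron reads of Rps3 rise too. Exon reads at 6 h stay within 2-fold of dormant in all 9 hosts.

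The small RNA rows of all 179 hosts, whether or not the host's introns changed, were lower at 6 h in both length classes. Of 97 rows under 140 bases with at least 50 reads in the higher library, 4 rose and 32 fell, with a median of -0.55. Of 16 longer rows 3 rose and 5 fell, with a median of -0.26. The part of fragment length was not tested. Among genes of any kind with under 200 bases of exon, 22 of 304 rose and 99 fell, and among those of 200 to 500 bases 25 of 209 rose and 14 fell. Of 117 hosts with a row for at least 1 small RNA, 76 had 50 or more reads in those rows, and 23 of the 76 changed in intron reads. In 21 of the 23 the small RNA rows changed in the same direction, which the intron counts that include them would share. Over the 117 hosts 25 changed. The intron reads left after taking those rows off changed in 4 of the 25, namely Rpl4, Rps3, Iars and Gm29394. The rows of Iars and Gm29394 held 0 reads in dormant and at 6 h, so nothing was taken off there. In 2410002F23Rik the rows held more reads than the introns, so its remainder was set to 0 and could not change. In 9 of the 117 the small RNA rows held more reads than the host's introns in the dormant or the 6 h library, so a host's intron count does not always include them.

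**Figure D4:**
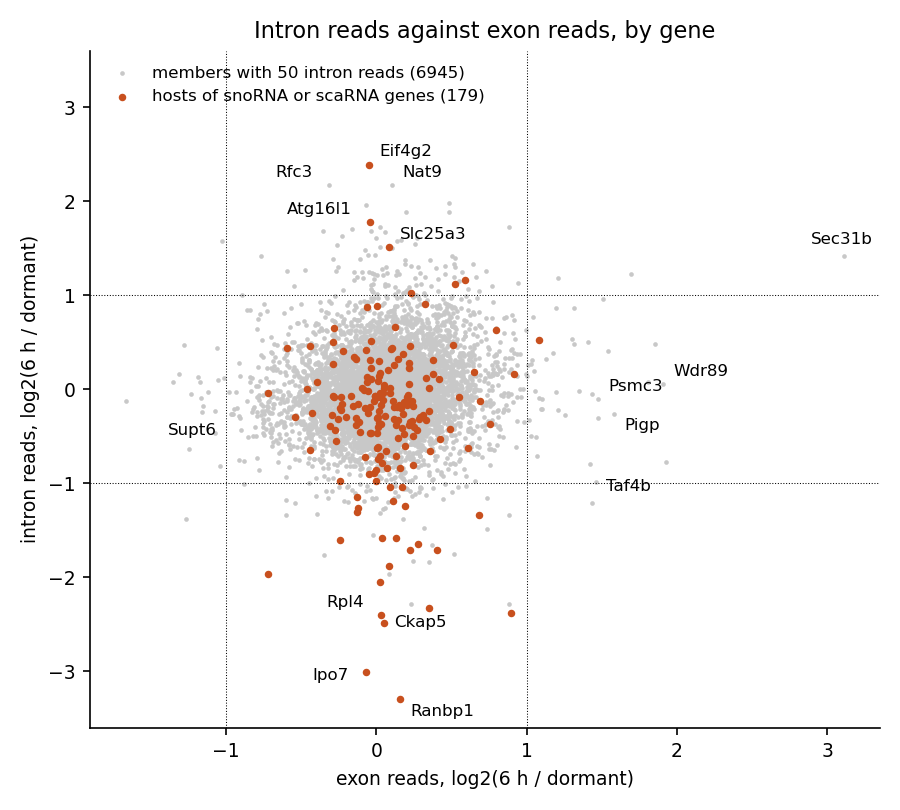
Difference in intron reads (y axis, log2 of 6 h over dormant) against that in exon reads (x axis, same scale) for 6945 members with at least 50 intron reads, with 179 hosts of snoRNA or scaRNA genes coloured and dotted lines at 2-fold. Hosts such as Ipo7 and Ranbp1 fall to -3.0 and -3.30 with exon differences near 0, and genes with large exon differences such as Wdr89 and Psmc3 lie near 0 in introns.

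Outside the hosts 102 members rose in introns, and 3 of them are given here with their exon reads. Cldn7, a tight junction claudin (ENSMUSG00000018569, chromosome 11, 69964779 to 69967885), had 49 intron reads in dormant, 183 at 6 h and 78 at 12 h, and 870 and 983 exon reads. Cdk4, the kinase that cyclin D activates (ENSMUSG00000006728, chromosome 10, 127063534 to 127067920), had 58, 196 and 164 intron reads and 1709, 2128 and 1800 exon reads. Mapk3, the kinase ERK1 (ENSMUSG00000063065, chromosome 7, 126759601 to 126765819), had 17, 64 and 14 intron reads and 408, 406 and 360 exon reads. In all 3 the intron reads were at least 3-fold up while exon reads differed by at most 0.16 on the log2 scale.

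Further intron rises were in Rfc3, a clamp loader subunit of DNA replication (16, 84 and 164 intron reads), the caspase Casp6 (27, 95 and 47), Nat9 (17, 89 and 29), Akr1e1 (29, 105 and 75) and C1d, a cofactor of the RNA exosome (49, 204 and 148). Of these, C1d also rose in junction reads (67 and 162). Gjb5, a connexin of trophoblast, and the kinase Pim1 were chosen after their values were seen, with 15, 51 and 20 and with 19, 59 and 15 intron reads. Intron falls outside hosts were Stip1, a co-chaperone of Hsp70 and Hsp90 (1024, 233 and 814), Vrk3 (609, 173 and 125), Zdhhc9 (192, 62 and 101), Lrfn1 (169, 55 and 30) and Srd5a3 (50, 15 and 38). Stip1 had 1260, 1645 and 4447 exon reads, so at 12 h its exon reads were above dormant while its intron reads were not.

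Intron length went with the intron difference. Over members with no other annotated gene inside, the median intron difference was 0.35 for 48 genes with under 2000 bases of intron, 0.19 for 234 genes of 2000 to 5000 bases, 0.08 for 588, 0.02 for 1161, -0.05 for 1773, -0.11 for 896, and -0.16 for 521 genes of at least 100000 bases. Exon differences of the same genes had medians of 0.06 and -0.03 at the ends and 0.12 in the middle. At 12 h the intron medians were -0.33 at the short end, -0.19 in the middle and -0.34 at the long end. Grouped by the GC content of the longest annotated transcript, the same genes had a median intron difference at 6 h of -0.19 under 40% GC. At 55 to 60% GC it was 0.12. The part of GC content in the order by intron length was not tested. Exon differences also declined with exon length, from 0.16 at 1000 to 1500 bases to -0.05 at 6000 bases or more.

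**Figure D5:**
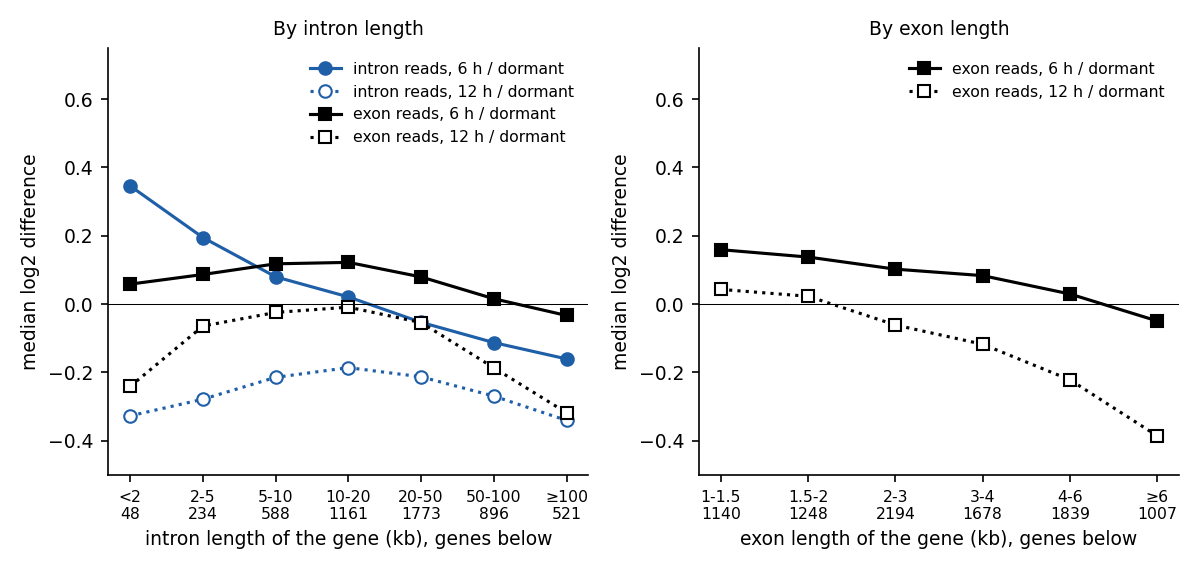
Median log2 difference from dormant by total intron length of the gene (left) and by exon length (right), for exon reads (squares) and intron reads (circles) at 6 h (filled) and 12 h (open), with the number of genes under each class. Intron medians at 6 h descend from 0.35 to -0.16, and at 12 h they stay between -0.34 and -0.19.

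Gene groups known for diapause and its exit were nearly still in exon reads at 6 h. The lists held 794 members, in 39 of the 40 (the red blood cell list had none). Of these, 1 rose (Psmc3) and 2 fell (Supt6 and the macrophage gene Cd68, at 64 and 29 reads). That is 0.378%, against 1.75% of all members. The share over all members depended on coverage, with 7.20% at 50 to under 100 exon reads in the higher library and 0.400% at 200 to under 500. The part of coverage in the contrast with the lists was not tested. Of the 37 lists with at least 5 members, 36 had medians within 0.2 of 0, beside 0.07 over all members. Median-ratio scaling lowers every median by 0.07, so no direction is given for lists that close to 0.

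Mitochondrially encoded protein genes had the lowest median of the lists with 5 members. All 7 members were below 0, with a median of -0.64 (-0.48 with at least 200 reads), though none passed 2-fold. Of the 6 genes of the list outside the members, 4 were below 0 too and the better covered were mt-Nd1 at -0.17 (15212 and 15045 reads) and mt-Nd6 at 0.38 (272 and 393 reads, interval 0.15 to 0.61). The cytochrome oxidase subunit mt-Co1 had 30545 exon reads in dormant, 21773 at 6 h and 34796 at 12 h, or 1400, 898 and 1186 RPKM. The complex I subunit mt-Nd4 had 228, 136 and 139 RPKM, and mt-Nd4l 188, 113 and 115. In the tables mt-Nd4l shares nearly all its reads with mt-Nd4, so the medians above count much the same reads under both names. The cytochrome b gene mt-Cytb had 971, 962 and 842 RPKM, a difference of -0.01. Values of mt-Nd2 and mt-Nd5 were -0.31 and -0.25. Nuclear genes of oxidative phosphorylation had a median of 0.11 over 17 members, and none passed 2-fold in exon reads. Junction reads fell in 1 of the 15 measured, beside 2.38% of all measured members.

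In exon reads no member of the signalling lists passed 2-fold. Junction reads rose in 2 of 4 measured immediate early genes, 2 of 11 Hippo genes and 1 of 6 BMP, Nodal and TGF-beta genes. They rose in none of the LIF, ErbB, FGF and ERK, insulin and Wnt lists (8, 4, 11, 16 and 9 measured). Over all measured members 5.09% rose in junctions. Intron reads rose in 1 of 18 FGF and ERK genes, Mapk3, beside 1.58% of all measured members. The 20 immediate early genes, which growth factors switch on within minutes, had a median of -0.14 in exons and, for the 11 measured, 0.21 in introns, beside -0.06 for introns of all members. Fosl2, of the AP-1 family, was highest, with 5.65 RPKM in dormant, 9.66 at 6 h and 3.58 at 12 h. Fos had 49.8, 51.1 and 17.6 RPKM, and its intron reads were 86, 147 and 61. Dusp1, a MAP kinase phosphatase, was at 12.4, 8.88 and 16.2 RPKM, and Egr1 at 5.03, 3.92 and 1.66. At 12 h the median of the list was -0.92. Within Wnt signalling 6 of 23 members were above 0, with a median of -0.13, and beta-catenin (Ctnnb1) had 26.3, 20.3 and 27.4 RPKM.

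None of the receptors that meet uterine signals passed 2-fold. In the LIF and STAT3 list (median -0.07 over 14) Lifr had 10.2, 9.78 and 8.85 RPKM, its partner Il6st 9.20, 6.89 and 6.93, and Stat3 35.8, 37.5 and 12.7. Il6 had 19.5, 12.9 and 6.10. In the ErbB list (median -0.02 over 6), whose ligands mediate attachment, Egfr had 0.82, 0.50 and 1.21 RPKM, Erbb2 22, 21.6 and 6.56, Erbb3 38.7, 38.4 and 7.86, and the ligand Hbegf 5.70, 6.08 and 10.9. Erbb2 and Erbb3 were thus lower at 12 h and near equal at 6 h. The FGF and ERK list was at -0.05 over 22, with Fgfr1 at 17.1, 11.9 and 9.41 RPKM, and the list of insulin, PI3K and mTOR signalling was at 0.05 over 29, with Foxo1, a target of that pathway, at 3.41, 5.49 and 2.32.

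Among growth and division genes no member passed 2-fold at 6 h in exon reads. The G1/S and replication list had a median of 0.06 over 38 members at 6 h and 0.71 at 12 h. Ccne1 (cyclin E) had 2.59, 3.02 and 17.5 RPKM, Ccnd1 (cyclin D) 9.07, 10.1 and 17.9, and Cdc25a, which releases cyclin-dependent kinases from inhibition, 16.2, 10.4 and 11.6. The G2/M list was at 0.10 over 28 and 0.59 at 12 h, with Cdc20 at 9.65, 13 and 15.4 RPKM. Junction reads of Cdc20 went from 32 to 121, the 1 rise among 13 members of the list measured in junctions. They also rose in 1 of 20 measured G1/S genes and 2 of 5 cell cycle inhibitors, beside 5.09% of all measured members. Myc had 14.2, 11.3 and 15.3 RPKM, and Mycn 42.1, 43.9 and 47.5. Cell cycle inhibitors (median 0.15 over 19) included Cited2 at 12.4, 6.63 and 12.1 RPKM, Btg1 at 22.2, 33.7 and 9.94 and Cdkn1a at 15.2, 20.3 and 3.27. The latter pair was above dormant at 6 h and below it at 12 h.

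Metabolic lists were also near 0. Glycolysis had a median of -0.05 over 14 members at 6 h and 0.55 at 12 h, with the muscle-type pyruvate kinase Pkm at 18.5, 17.2 and 72.4 RPKM, Aldoa (aldolase) at 120, 154 and 286 and the glucose transporter Slc2a1 at 47.8, 39.8 and 82.2. Aldoa junction reads went from 710 to 1562, a log2 difference of 0.98. Of the 12 glycolysis members measured in junctions, 0 rose and 2 fell. Among fatty acid oxidation genes (0.09 over 18, -0.38 at 12 h) Echs1 had 42.8, 79.2 and 45.7 RPKM and Acaa2 22.1, 36.4 and 22.7, both closer to dormant at 12 h than at 6 h. In cholesterol synthesis (0.09 over 20, 0.75 at 12 h) Fdft1, which makes squalene, had 4.85, 9.11 and 11.2 RPKM. Odc1, the first enzyme of polyamine synthesis, had 6.49, 7.51 and 15.3. Its junction reads rose at 6 h, with a difference of 1.03. That was the 1 rise among 4 polyamine genes measured in junctions, beside 5.09% of all measured members.

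Protein and RNA production stood close to the median of all members. Chaperones had a median of 0.08 over 33 (0.69 at 12 h), with Hspa5, the endoplasmic reticulum's Hsp70, at 121, 122 and 266 RPKM and Hsp90aa1 at 9.67, 13 and 29.5. Ribosome biogenesis was at 0.04 over 35 (0.49 at 12 h), with the nucleolar proteins Ncl at 12.8, 7.71 and 26.3 RPKM and Fbl at 3.23, 6.09 and 6.99. Translation factors were at 0.00 over 27 and spliceosome genes at 0.06 over 39. Within the spliceosome list Srsf11 had 18.2, 35.5 and 39.3 RPKM (0.97, interval 0.86 to 1.07), with junction reads of 241 and 294 and intron reads of 507 and 531. Genes of RNA polymerase II transcription were at 0.01 over 36. Chromatin modifiers were at -0.04 over 39, with the acetyltransferase Crebbp at 13.9, 8.55 and 6.60 and the DNA methylation cofactor Uhrf1 at 8.31, 12.8 and 20.8. Autophagy and lysosome genes were at 0.03 over 40, with the protease Ctsl at 217, 324 and 214 and Tfeb, which drives lysosome genes, at 31.0, 29.2 and 7.74.

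No member of the lineage lists passed 2-fold in exon reads either. Junction reads fell in 1 of 19 measured trophectoderm markers, beside 2.38% of all measured members. Intron reads rose in 1 of 18 naive epiblast markers and fell in 1 of 14 primitive endoderm markers, beside 1.58% and 1.27%. Trophectoderm markers had a median of 0.03 over 22, with Cdx2 at 113, 95.8 and 34.8 RPKM, Gata3 at 48.0, 42.5 and 21.1, Eomes at 87.9, 73.4 and 81.9 and Krt18 at 807, 834 and 624. Of the naive epiblast markers (0.03 over 25) Dppa4 was highest, at 0.94, followed by the core pluripotency factors, Nanog with 14.6, 21.7 and 17.7 RPKM (0.57, interval 0.40 to 0.74) and Pou5f1 with 87.1, 125 and 124 (0.52, 0.43 to 0.61). The junction reads were 43 and 79 for Nanog and 327 and 322 for Pou5f1, near equal in the latter. Primitive endoderm markers were at -0.01 over 18, with Cubn, an endocytic receptor, at 7.98, 4.88 and 9.12 and Gata6 at 11.8, 9.64 and 7.47. Adh1, which oxidises retinol, had 1375, 1497 and 237 RPKM, and the connexin Gjb2 190, 213 and 13.2. Both were near their dormant level at 6 h.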

How the data were processed

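The submitters sequenced rRNA-depleted total RNA as 50 bp single-end SOLiD reads, 1 library per state, on the GRCm38 build per the submitters' processing notes. No source used here states the aligner, counter or annotation. The authors deposited, per gene, whole read counts (exon, intron, junction and opposite-strand) and RPKM, and per the file headers the exon count and exon length stand beside it. RPKM gave back the library totals of 14118723, 15687239 and 18982195 reads. In all 31510 genes exon plus intron reads equalled the gene and junction columns less their overlap.

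From these, log2 differences were computed after adding 1 read and dividing by the library total, with a limit of 2-fold and at least 50 reads of that kind in the higher library. Exact binomial 95% intervals cover counting error only, since reads carry no molecular identifiers. A gene with 3 reads per kb of exon would be at 0.212 RPKM in dormant and 0.191 at 6 h. Symbols, coordinates and nested small RNAs came from GENCODE M21, which holds 98.3% of members but gives the same gene length for 10.6%. Genes were named by a rule, leaving out predicted genes, small RNAs and pseudogenes. It took the 12 highest and 12 lowest exon differences at 5 RPKM or more, the 10 highest and 10 lowest intron differences, the 6 largest gaps each way between intron and exon difference, the 3 largest exon differences of each list, and 52 chosen genes. Genes named otherwise were chosen after their values were seen, and include Rps2, Rps3, Slc25a3, Slc25a43, Snx5, Gm29394, Cd68, Dppa4, mt-Co1, mt-Cytb, mt-Nd1, mt-Nd6, mt-Nd2 and mt-Nd5. Members and gene lists were chosen with earlier results of these data known. Python 3.11.15, pandas 2.3.3, numpy 2.4.6 and scipy 1.17.1 were used, with edgeR 4.0.16 for TMM factors only. The script was tested on simulated data. Some genes are not reported here.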

Additional observations from a re-analysis of the deposited data

Results flagged for a closer look

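Reads on the opposite strand, which no comparison above uses, outnumbered own-strand exon reads in 284 members, 3.12% of 9106. Of these, 13 rose and 8 fell in exon reads, 7.39% together, beside 1.75% of all members. Supt6 is one of them, with 4351 opposite-strand reads in dormant and 5376 at 6 h. The part of these reads in the exon values was not tested.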

How the results depend on the processing

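No paired analysis was possible because each state is 1 library, and no library could be left out. Counts of members that rose and fell in exon reads, 105 and 54, became 59 and 33 with 10 reads added, 26 and 9 on the log2(RPKM + 1) scale, 323 and 188 with a minimum of 20 reads, 19 and 5 with 200, 1722 and 1806 with none, 53 and 23 with a minimum length of 2000 bases, 203 and 179 with none, and 580 and 309 at 1.5-fold. Intron counts of 110 and 88 became 226 and 139 with 20 reads and 13 and 33 with 200, and without members that hold another annotated gene 92 rose and 55 fell. Junction counts of 227 and 106 became 484 and 302 with 20 reads and 42 and 9 with 200. The exon and junction correlation of 0.52 became 0.65 with 200 reads and 0.15 without junction reads in the exon count. With median-ratio scaling the median of the G2/M list was 0.029 and that of uterine stroma -0.53. The causes were not tested, beyond the fewer or further genes each limit admits. The balance of rises and falls turned in exon reads with no minimum and in intron reads with 200. List medians near 0 changed sign with median-ratio scaling or 200 reads, such as the Myc network (0.053 and, with 200 reads, -0.214). Depth limits the rest, since 50 reads leave wide counting intervals.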
